A study of Homo sapiens with 33 samples.

Results

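Tight junction genes, 9 in all, were followed in 3 head and neck squamous cell carcinoma (HNSCC) cell lines over 5 days of cetuximab, an antibody that blocks the epidermal growth factor receptor. They are the claudin genes CLDN1, CLDN4, CLDN7 and CLDN12, the MARVEL protein genes OCLN and MARVELD2, the scaffold genes TJP1 and TJP3, and F11R, which encodes the adhesion molecule JAM-A. They were taken by symbol, and all 9 were found among the 56470 gene symbols of the deposited table of RNA sequencing counts. SCC1 (UM-SCC-1), SCC6 (UM-SCC-6) and SCC25 cells were given 100 nM cetuximab (CTX) or phosphate-buffered saline (PBS, the untreated control) and were collected daily. The 33 libraries are 1 PBS library per line on day 0, 5 PBS libraries per line on days 1 to 5, and 5 CTX libraries per line. In SCC1 and SCC25 the CTX libraries are those of days 1 to 5. In SCC6 they are 2 libraries that both carry day 2 in their labels (2a and 2b) and those of days 3, 4 and 5. Each line, treatment and day otherwise has 1 library, so the days stood in for replicates, change over the days is part of the error, and p-values measure the spread between these libraries only. The labels give no mutation or allele for the lines, which are established tumour cell lines grown without stroma.

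Tight junctions seal the space between neighbouring epithelial cells near their apical side. Claudins span the membrane and form the strands that set which ions and molecules pass, occludin (OCLN) and tricellulin (MARVELD2) belong to the same strands, tricellulin mainly where 3 cells meet, and the zonula occludens scaffolds ZO-1 (TJP1) and ZO-3 (TJP3) tie the strands to actin. Loss of claudins and occludin is a usual sign of cells that move away from the epithelial state, and repressors such as SNAI1 and ZEB1 bind CAGGTG boxes in epithelial promoters.

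Library totals of days 1 to 5 ran from 28508800 to 80727500 estimated counts. Levels are given in CPM, the count of a gene scaled to its library's normalized total, on 1 scale for all libraries. The 5 epithelial markers (KRT5, KRT14, KRT6A, TP63, EPCAM) summed to 252 to 16012 CPM across these libraries, so epithelial markers were present in every library. The sum of 5 fibroblast markers (COL1A1, COL1A2, DCN, PDGFRB, THY1) moved with treatment, from 20.9 to 32.6 CPM with PBS to 48.8 to 146 CPM with CTX in SCC1, from 2.75 to 4.94 to 8.68 to 96.9 CPM in SCC6, and from 116 to 139 to 146 to 232 CPM in SCC25. The epithelial sum rose in SCC1 (933 to 1956 CPM with PBS, 4691 to 6606 CPM with CTX) and was lower with CTX in SCC6 (375 to 888 against 252 to 343 CPM). The sum of 4 leukocyte markers (PTPRC, CD3E, CD68, CD14) was lower with CTX in SCC1 and SCC6 (18.6 to 53.3 against 8.34 to 16.7 CPM, and 16.4 to 18.8 against 3.97 to 7.15 CPM). In SCC25 the leukocyte sum was 168 to 235 CPM with PBS and 145 to 176 CPM with CTX, with CD3E at 0 in all of them. The 4 endothelial markers (PECAM1, CDH5, VWF, KDR) summed to 0.308 to 18.5 CPM. The part of these changes in the results below was not tested.

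The first question was how much of each junction gene the untreated lines carried. SCC6 had the highest levels of CLDN4, OCLN, TJP1 and TJP3, and SCC25 had the lowest levels of CLDN4, CLDN7, CLDN12, OCLN, TJP1 and TJP3. CLDN1 was lowest in SCC1. F11R and MARVELD2 were nearly level across the lines. With edgeR (quasi-likelihood F test, p adjusted after Benjamini and Hochberg, calls at an adjusted p under 0.05), 7 of the 9 genes differed between SCC6 and SCC1 (69.1% of all genes tested), 8 of 9 between SCC25 and SCC1 (68.4%) and 7 of 9 between SCC25 and SCC6 (72.1%), shares close to that of all genes.

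Per kilobase of transcript, the only scale on which genes are compared here, CLDN7 led in SCC1 with 80.8 ± 8.02 CPM per kb (SD, n = 5 PBS libraries), followed by F11R with 55.0 ± 0.962. CLDN4 led in SCC6 with 337 ± 175 CPM per kb, above CLDN7 with 101 ± 23.6. CLDN1 led in SCC25 with 54.2 ± 2.67 CPM per kb, within 1 SD of F11R with 52.4 ± 2.31. TJP3 was the lowest of the 9 in every line, at 0.230 ± 0.133 in SCC1, 1.74 ± 1.05 in SCC6 and 0.0266 ± 0.0180 CPM per kb in SCC25. The claudin with the highest level was a different one in each line.

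**Figure D1:**
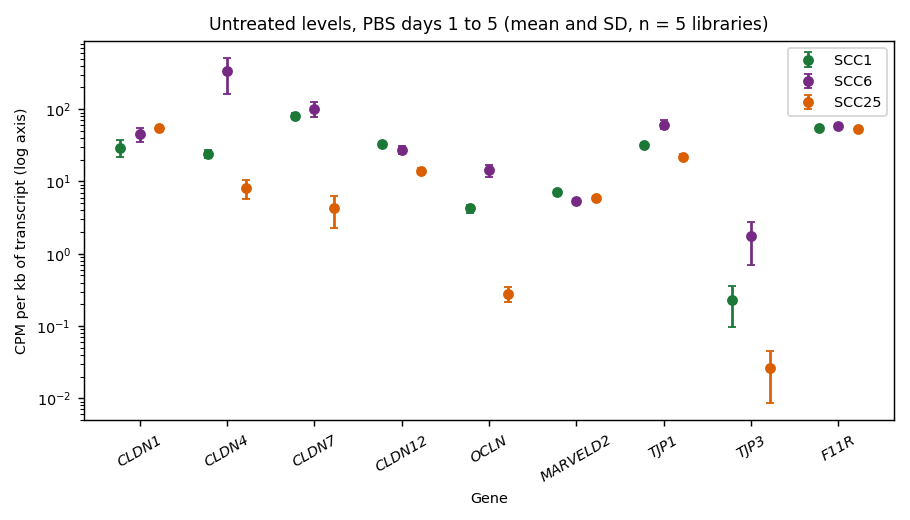
Untreated levels of the 9 genes, as the mean CPM per kb of transcript (log axis) with the SD over the 5 PBS libraries of days 1 to 5 of each line. CLDN4 runs from 8.09 CPM per kb in SCC25 to 337 in SCC6, OCLN from 0.280 to 14.3, and F11R only from 52.4 to 58.3.

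CLDN4, a claudin of tighter epithelia, was 3.82 ± 0.29 higher on the log2 scale in SCC6 than in SCC1 (± SE throughout, adjusted p = 3.5e-09) and −1.59 ± 0.28 in SCC25 relative to SCC1 (adjusted p = 6.5e-05). CLDN7, which is often found with CLDN4, differed little between SCC6 and SCC1 (0.35 ± 0.22, adjusted p = 0.172) and stood at −4.24 ± 0.26 in SCC25 relative to SCC1 (adjusted p = 1.6e-10). OCLN was 1.78 ± 0.14 higher in SCC6 than in SCC1 (adjusted p = 6.1e-09) and −3.93 ± 0.17 in SCC25 relative to SCC1 (adjusted p = 1.5e-12). Between the extremes, SCC25 relative to SCC6, the log2 difference was −5.41 ± 0.32 for CLDN4, −4.59 ± 0.26 for CLDN7 and −5.71 ± 0.18 for OCLN (adjusted p = 9.2e-11, 6.0e-11 and 2.1e-14).

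CLDN1, a claudin of the squamous epithelia, ran the other way: SCC25 exceeded SCC1 by 0.87 ± 0.16 (adjusted p = 0.00010) and SCC6 exceeded SCC1 by 0.64 ± 0.16 (adjusted p = 0.0017). SCC25 and SCC6 were neighbours in CLDN1, 0.23 ± 0.16 apart (adjusted p = 0.193), or 0.27 with day as a block (adjusted p = 0.0388). CLDN12, a claudin without the usual scaffold-binding tail, was at −1.24 ± 0.09 in SCC25 and −0.25 ± 0.09 in SCC6 relative to SCC1 (adjusted p = 2.4e-09 and 0.0211), the second without a call once PBS day 3 of SCC1 was left out (adjusted p = 0.0537). Among the scaffolds, TJP1 was at 0.97 ± 0.09 in SCC6 and −0.53 ± 0.09 in SCC25 relative to SCC1 (adjusted p = 5.9e-08 and 7.2e-05), and TJP3 was at 2.93 ± 0.42 and −3.08 ± 0.60 (adjusted p = 7.5e-06 and 0.00021). MARVELD2 was at −0.39 ± 0.08 in SCC6 and −0.27 ± 0.08 in SCC25 relative to SCC1 (adjusted p = 0.00028 and 0.0057). SCC6 and SCC25 did not differ in MARVELD2 beyond their spread (0.12 ± 0.08, adjusted p = 0.175), though leaving out PBS day 2 of SCC6 gave a call (0.18, adjusted p = 0.0470). F11R differed only between SCC25 and SCC6 (fell by 0.18 ± 0.06 on the log2 scale, adjusted p = 0.0080), a call that was lost with no filter on low counts (adjusted p = 0.114). F11R of SCC6 and SCC1 differed by 0.11 ± 0.06 (adjusted p = 0.0875), and that difference was called without PBS day 1 of SCC6 (adjusted p = 0.0280) and by DESeq2 (adjusted p = 0.0349).

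Per the sample records the lines were grown in different media, with hydrocortisone for SCC1 and SCC25 and non-essential amino acids for SCC6, and all PBS libraries of SCC25 ran on a flow cell that held no PBS library of another line. The study's methods instead describe the same medium for all lines. If the media did differ, line and medium cannot be told apart, and for SCC25 line and flow cell cannot be told apart. Among PBS libraries of days 1 to 5, SCC1 and SCC6 shared a flow cell only through day 5 of SCC1 and day 1 of SCC6. Line and flow cell are thus nearly confounded for these lines too, and the PBS differences were not fitted with flow cell.

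Levels in the untreated libraries also changed over days 0 to 5. CLDN1 rose with day in all 3 lines, while CLDN4 and CLDN7 rose in SCC25 and fell in SCC6. On a linear fit over the 6 PBS libraries of a line, 1 of 9 genes was called in SCC1 (2.49% of all genes tested), 4 of 9 in SCC6 (32.7%) and 4 of 8 in SCC25 (10.7%). At an unadjusted p under 0.05 the counts were 6, 4 and 6, against 20.9%, 44.7% and 25.1% of all genes, so that in SCC6 the count was at the share of all genes.

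In SCC1, CLDN1 climbed by 0.21 ± 0.02 log2 units a day, from 64.0 CPM on day 0 to 142 CPM on day 5 (adjusted p = 0.0112). The slopes of CLDN1 in SCC6 and SCC25 were 0.16 ± 0.03 and 0.11 ± 0.03 a day (adjusted p = 0.0054 and 0.0224). Day 0 carried part of this: without it the slope was 0.20 in SCC1 (adjusted p = 0.0669) and 0.04 in SCC25 (adjusted p = 0.284). CLDN4 of SCC25 went from 6.62 to 19.1 CPM, a slope of 0.29 ± 0.02 (adjusted p = 1.5e-05), and CLDN7 of SCC25 from 3.22 to 11.5 CPM, a slope of 0.36 ± 0.04 (adjusted p = 9.9e-05). In SCC6 this pair of claudins fell by 0.37 ± 0.05 and fell by 0.15 ± 0.04 log2 units a day (adjusted p = 0.0016 and 0.0163), CLDN4 from 851 CPM on day 0 and 1059.9 CPM on day 1 to 296 CPM on day 5. The CLDN7 slope in SCC6 was not called without day 5 (fell by 0.11, adjusted p = 0.138). TJP3 of SCC6 rose by 0.44 ± 0.07 a day, from 1.84 to 10.5 CPM (adjusted p = 0.0031), and TJP1 of SCC25 by 0.07 ± 0.02 (adjusted p = 0.0166), the latter without a call when day 0, 1 or 5 was left out (adjusted p = 0.0616 to 0.0779). Any comparison with CTX therefore sat on controls that were themselves moving. In SCC6, PBS days 0 and 1 ran on another flow cell than days 2 to 5. In SCC1, PBS day 5 ran on another flow cell than days 0 to 4. In these lines day and flow cell are partly confounded, and the trends were not fitted with flow cell.

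**Figure D2:**
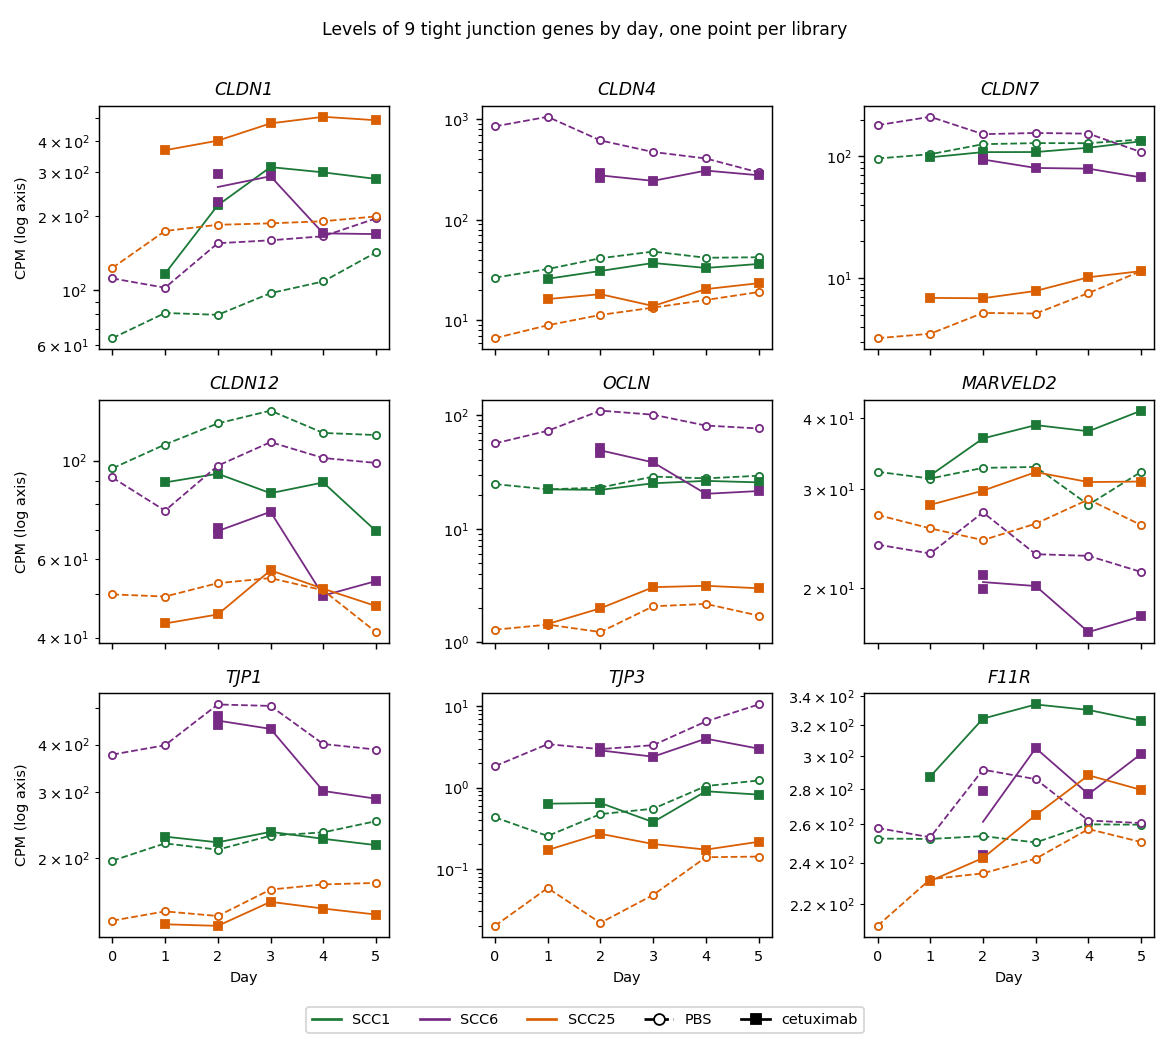
Levels of the 9 genes in CPM (log axis) by day, with 1 point per library, open circles and dashed lines for PBS and filled squares and solid lines for CTX, coloured by line. The 2 SCC6 CTX libraries labelled day 2 both stand at day 2, and the lines pass through the mean of a day. CLDN1 with CTX lies above PBS on every day in SCC1 and SCC25, OCLN with CTX lies below PBS on every day in SCC6, and CLDN4 with PBS declines in SCC6 to the level of the CTX libraries by day 5.

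The main question of the design was what cetuximab did. Over days 1 to 5, the mean level of CLDN1 rose 2.43-fold in SCC1 and 2.40-fold in SCC25, OCLN, CLDN4, CLDN7, CLDN12 and MARVELD2 fell in SCC6, and the 2 scaffolds TJP1 and TJP3 were called in no line. Fewer cells with a transcript and less of it per cell cannot be told apart in bulk RNA. In SCC1, 5 of 9 genes were called, against 44.8% of all genes, with CLDN1, F11R and MARVELD2 higher (3 of 9, against 22.7% of all genes) and CLDN12 and CLDN4 lower (2 of 9, against 22.1%). In SCC6, 5 of 9 were called, against 30.1% of all genes, and all 5 were lower, against 14.6% of all genes lower and 15.6% higher. At an unadjusted p under 0.05, 6 of the 9 were lower and 1, CLDN1, was higher in SCC6, against 20.5% of all genes lower and 21% higher at that threshold, and DESeq2 called CLDN1 there as well. In SCC25, 2 of the 8 genes tested were called, against 18.3% of all genes, and both, CLDN1 and MARVELD2, were higher (8.8% of all genes were higher and 9.5% lower). At an unadjusted p under 0.05, 4 of the 8 were higher and 1, TJP1, was lower, against 16.2% of all genes higher and 17% lower. With the day as a block, the count in SCC25 became 6 of 8, the 2 above with CLDN4, CLDN7 and OCLN higher and TJP1 lower, against 26.8% of all genes with that block, and in SCC6 it became 7 of 9, with TJP1 and TJP3 also lower, against 45.8% of all genes. With flow cell in the fit, treatments are compared only on the flow cell of a line that held both. In SCC1 that set CTX against PBS day 5 alone, where CLDN1 was 0.81 higher on the log2 scale. In SCC6 it set CTX 2a, 2b and day 3 against PBS days 2 to 5. These CTX and PBS libraries ran on separate lanes of the flow cell, so treatment and lane cannot be told apart in that fit. There 1 of 9 was higher and 5 lower, against 2676 and 2646 of 17387 genes. In SCC25 it set CTX days 1 and 2 against PBS. There 1 of 8 was higher and 0 lower, against 668 and 749 of 19101 genes. The median log2 fold change was −0.06 over the 9 genes in SCC1, −0.63 over the 9 in SCC6 and 0.32 over the 8 tested in SCC25, beside 0.02, 0.0039 and 0.0062 over all genes tested.

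**Figure D3:**
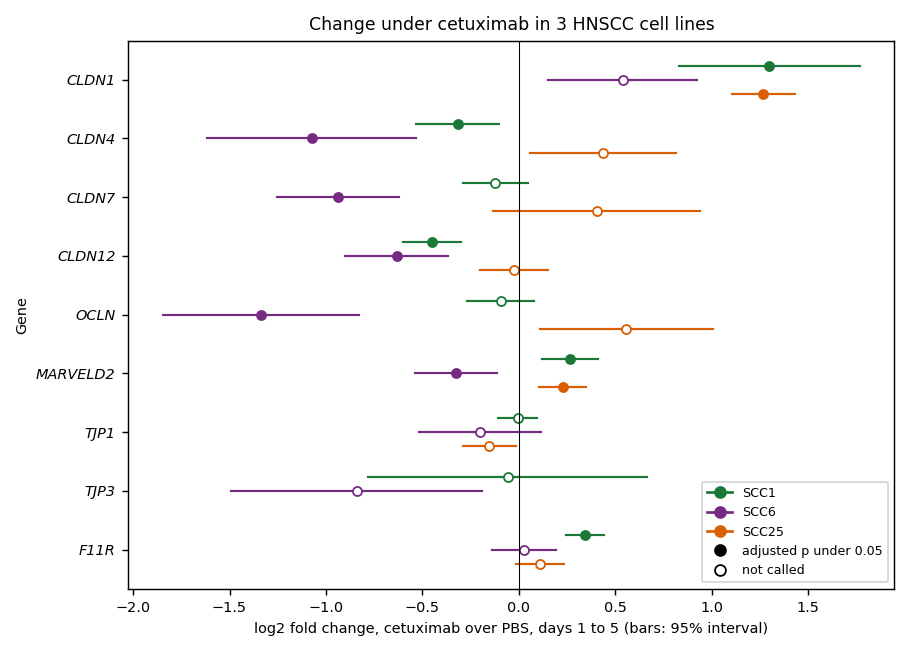
Log2 fold change of CTX over PBS across days 1 to 5 for each gene and line, with bars for the 95% interval and filled points for adjusted p under 0.05. SCC6 lies furthest to the left for each of the 9 genes, with OCLN at −1.34, and CLDN1 lies to the right of 0 in all 3 lines. TJP3 was not tested in SCC25.

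The claudins are taken first. CLDN1 (chr3:190023496-190040235, minus strand, GRCh37, as all gene positions here) stood at 80.9, 79.5, 97.3, 109 and 142 CPM on days 1 to 5 with PBS in SCC1 and at 117, 221, 315, 299.9 and 282 CPM with CTX. Only CTX day 1 lay within the PBS range, and CTX was the higher on 5 of 5 days. The rise was 1.30 ± 0.24 on the log2 scale (adjusted p = 0.00078). All SCC1 CTX libraries ran on a flow cell whose only SCC1 PBS library was that of day 5, and with flow cell in the fit the value was 0.81 (adjusted p = 0.171).

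For SCC25, CLDN1 was at 174, 184, 187, 190.2 and 199 CPM with PBS and at 369, 403, 474, 503 and 488 CPM with CTX, 2 groups that did not overlap. The rise of 1.27 ± 0.08 (adjusted p = 9.1e-06) had the smallest error, relative to its size, of any change among these genes, and it held with flow cell in the fit (1.06, adjusted p = 1.8e-05).

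In SCC6, CLDN1 was above PBS only in the earlier CTX libraries. PBS gave 102, 155, 159, 165 and 195 CPM on days 1 to 5, and CTX gave 296 and 228 CPM in libraries 2a and 2b, 289 CPM on day 3, 169.9 CPM on day 4 and 169 CPM on day 5. The CTX libraries of day 2 and day 3 lay above every PBS library and those of days 4 and 5 lay within the PBS range. The change over all days was 0.54 ± 0.20 (adjusted p = 0.0576). It was 0.78 without the CTX libraries of days 4 and 5 (adjusted p = 0.0107), and it was called without CTX day 4, without CTX day 5 or without PBS day 5 (0.63 to 0.64, adjusted p = 0.0334 to 0.0419) and with flow cell in the fit (0.66, adjusted p = 0.00068). It was smaller with the day as a block (0.36, adjusted p = 0.136) and without both CTX libraries of day 2 (0.39, adjusted p = 0.203). CLDN1 was one of the 2 genes whose change was not called as different between lines (adjusted p = 0.0805), and with the day as a block it was (adjusted p = 0.0073).

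CLDN4 (chr7:73213872-73247020, plus strand) and CLDN7 (chr17:7163222-7167302, minus strand) had fold changes of the same sign as each other in each line. In SCC6, CLDN4 fell from 1059.9 to 617, 473, 408 and 296 CPM over PBS days 1 to 5, whereas its CTX libraries held 263, 290.4, 244, 309 and 278 CPM. CTX was below PBS of the same day in 5 of 5 libraries, but PBS day 5 lay within the CTX range. The change was −1.07 ± 0.28 (adjusted p = 0.0124). Without the CTX libraries of days 4 and 5 it was −1.13 with an adjusted p of 0.0571. The change was smaller with the day as a block (−0.73, adjusted p = 0.0072). With flow cell in the fit it was −0.78 (adjusted p = 0.0111). In that fit CTX days 4 and 5 and PBS day 1 do not enter the comparison, and treatment and lane cannot be told apart. Leaving out 1 library gave −1.24 to −0.73 (adjusted p = 0.0036 to 0.0342). PBS day 1, the highest of these libraries, had no CTX library of the same day.

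CLDN7 in SCC6 was at 211, 152, 155, 153 and 108 CPM with PBS and at 93.0, 95.2, 80.2, 79.1 and 67.0 CPM with CTX. Every CTX library lay below every PBS library, and the change was −0.94 ± 0.16 (adjusted p = 0.0014). Reads of CLDN7 can overlap ELP5 on the opposite strand and a gene without a symbol on the same strand. Whether strand was used in the counting is not given in the sources used here.

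SCC1 had a small fall of CLDN4, with 32.3, 41.4, 48.3, 41.9 and 42.3 CPM in PBS and 25.9, 30.9, 37.1, 33.2 and 36.3 CPM in CTX. The groups overlapped, and the change of −0.32 ± 0.11 (adjusted p = 0.0310) depended on single libraries: it was not called without any 1 of CTX days 1, 2 and 4 and PBS days 2, 3 and 4 (adjusted p = 0.0502 to 0.0753), with day 0 added (adjusted p = 0.183) or with flow cell in the fit (adjusted p = 0.195). CLDN7 of SCC1, at 104 to 137 CPM with PBS and 98.1 to 133 CPM with CTX, changed by −0.12 ± 0.09 (adjusted p = 0.268).

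In SCC25 both claudins were low. CLDN4 was at 8.91, 11.3, 13.3, 15.9 and 19.1 CPM with PBS and at 16.2, 18.2, 13.9, 20.4 and 23.4 CPM with CTX, higher on 5 of 5 days, by 0.43 ± 0.19 (adjusted p = 0.137), by 0.46 with the day as a block (adjusted p = 0.0209) and by 0.34 with flow cell in the fit (adjusted p = 0.452). CLDN7 was at 3.51, 5.19, 5.13, 7.56 and 11.5 CPM with PBS and at 6.89, 6.85, 7.87, 10.2 and 11.4 CPM with CTX, a difference of 0.40 ± 0.27 (adjusted p = 0.335), 0.48 with the block (adjusted p = 0.0286) and 0.08 with flow cell in the fit (adjusted p = 0.921). The log2 ratio of CTX to PBS was highest on day 1 for both (0.86 and 0.96), and leaving out PBS day 5 gave 0.60 and 0.72 (adjusted p = 0.0387 and 0.0437). The change under CTX differed between the lines for CLDN4 (adjusted p = 0.0025) and CLDN7 (adjusted p = 0.0028), the latter not with flow cell in the fit (adjusted p = 0.272).

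CLDN4 and CLDN7 were also the closest pair. After each line's mean was taken out, the gene whose log2 CPM was most like CLDN4 over the 30 libraries of days 1 to 5, among 12549 genes, was CLDN7, and the reverse held too (Pearson r = 0.87, with 0.82 in SCC1, 0.89 in SCC6 and 0.92 in SCC25, 10 libraries each). These libraries share their cultures' time course and treatment, so the value is a description. OCLN followed CLDN7 with r = 0.73, CLDN12 with r = 0.70 and MARVELD2 with r = 0.73, and CLDN1 and F11R had r = 0.72. CLDN1 and CLDN4 had r = −0.14. The genes most like the others were ITFG1 for CLDN1 (r = 0.92), RASSF3 for CLDN12 (r = 0.94), HSPA4L for OCLN (r = 0.93), B4GALT4 for MARVELD2 (r = 0.86), DNM1L for TJP1 (r = 0.88) and UBE2H for F11R (r = 0.88), and TJP3 was under the level minimum for this comparison. Within a line r was 0.78 or higher for these pairs, except 0.39 for OCLN with HSPA4L in SCC1 and 0.55 for TJP1 with DNM1L in SCC25.

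**Figure D4:**
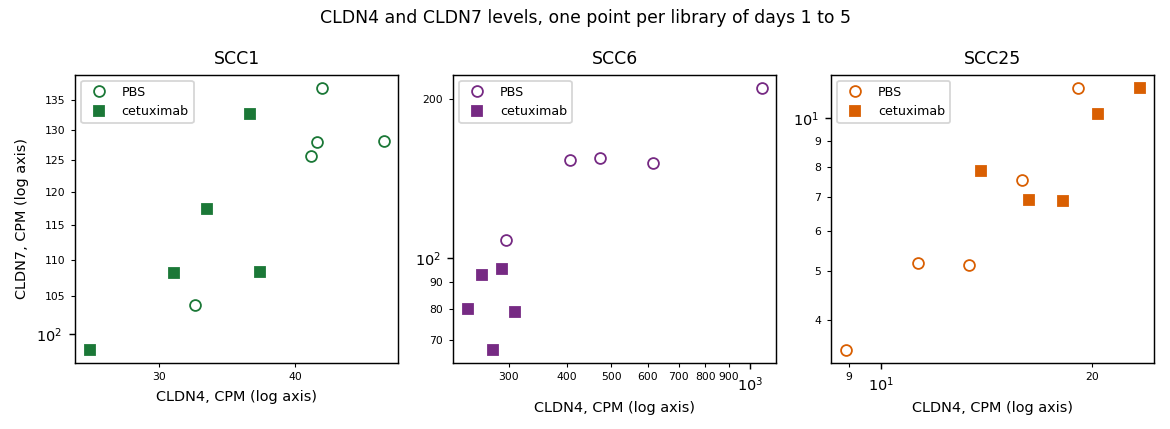
CLDN4 against CLDN7 in CPM (both log axes) in each line, 1 point per library of days 1 to 5, open circles for PBS and filled squares for CTX. The 2 genes rise together within each line, and in SCC6 all CTX libraries lie at the low end, with CLDN4 at 244 to 309 CPM and CLDN7 at 67.0 to 95.2 CPM.

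CLDN4, CLDN7, CLDN12, OCLN and MARVELD2 were called lower in SCC6. Promoters of CLDN4, CLDN7 and OCLN are shown, without the other promoter of CLDN7 and of OCLN. They are RefSeq sequences on GRCh38.p14, another build than that of the counts, from 250 bases before to 20 bases after the start of transcription, 5′ to 3′ along the gene, with capitals for CAGGTG or its reverse complement CACCTG.
CLDN4, chr7:73830746-73831015, plus strand: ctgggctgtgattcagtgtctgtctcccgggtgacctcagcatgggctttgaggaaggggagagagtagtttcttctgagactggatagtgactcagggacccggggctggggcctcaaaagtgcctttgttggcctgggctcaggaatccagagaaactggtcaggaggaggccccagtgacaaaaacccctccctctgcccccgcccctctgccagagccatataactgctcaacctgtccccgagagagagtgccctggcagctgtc
CLDN7, chr17:7262459-7262728, minus strand: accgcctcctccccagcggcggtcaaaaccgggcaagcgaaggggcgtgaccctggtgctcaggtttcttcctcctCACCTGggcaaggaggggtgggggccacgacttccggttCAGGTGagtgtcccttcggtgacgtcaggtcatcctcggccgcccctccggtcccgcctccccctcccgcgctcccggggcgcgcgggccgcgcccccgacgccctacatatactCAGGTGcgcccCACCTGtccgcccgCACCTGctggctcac
OCLN, chr5:69492297-69492566, plus strand: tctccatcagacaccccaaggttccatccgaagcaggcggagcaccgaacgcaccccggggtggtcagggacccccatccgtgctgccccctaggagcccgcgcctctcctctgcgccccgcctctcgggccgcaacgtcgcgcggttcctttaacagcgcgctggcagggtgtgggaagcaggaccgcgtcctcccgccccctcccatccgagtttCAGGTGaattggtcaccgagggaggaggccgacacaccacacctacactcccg
Of the 9 genes, 8 had promoters in the table, 14 in all, and F11R had none there. The motifs were chosen after the changes had been seen. CAGGTG, read on both strands of the 300 bases from 250 before to 50 after the start, occurred in 5 of the 14 promoters, belonging to CLDN7, OCLN, TJP1 and TJP3. It occurred in 20.6% of all 35116 promoters. The CLDN7 promoter shown held it 5 times, at positions −174, −135, −20, −9 and 6 from the start, and 0.094% of all promoters held 5 or more. The OCLN promoter shown held it at −33, and the OCLN promoter not shown held it at −133 and 36. The CLDN4 promoter had no match, nor did the CLDN7 promoter not shown or the promoters of CLDN12 and MARVELD2. GCCNNNGGC, the box bound by TFAP2 factors, was found once each in the promoters of CLDN12 and TJP3 and in 23.2% of all promoters. AACNGGTT, the box bound by grainyhead-like factors, was found in none of the 14 and in 1.73% of all promoters. A match is a description of the letters in these windows only.

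CLDN12 (chr7:90013035-90142716, plus strand, where the annotation overlaps CDK14, GTPBP10 and PTTG1IP2 on the same strand, so shared reads are possible) fell, like CLDN4, in both SCC1 and SCC6. In SCC1 it was at 109, 121, 129.6, 115 and 114 CPM with PBS and at 89.3, 93.5, 84.5, 89.3 and 69.5 CPM with CTX. Every CTX library was below every PBS library, and the change was −0.45 ± 0.08 (adjusted p = 0.00043), or −0.41 with flow cell in the fit (adjusted p = 0.0429). In SCC6, PBS gave 77.2, 97.4, 110.1, 101 and 98.8 CPM and CTX gave 68.5, 70.4, 76.7, 49.7 and 53.6 CPM, again without overlap. The change there was −0.63 ± 0.14 (adjusted p = 0.0049). SCC25 held 41.2 to 54.4 CPM with PBS and 43.0 to 56.7 CPM with CTX, a difference of −0.02 ± 0.09 (adjusted p = 0.877, 95% interval −0.20 to 0.15). The difference between lines was called (adjusted p = 0.0117) but not with flow cell in the fit (adjusted p = 0.200).

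Of the MARVEL protein genes, OCLN (chr5:68788119-68853931, plus strand) had the deepest fall. SCC6 held 72.9, 109.6, 101, 81.0 and 76.4 CPM with PBS and 46.4, 51.6, 38.4, 20.3 and 21.5 CPM with CTX. All 5 CTX libraries lay below all PBS libraries, those of days 4 and 5 lowest. The change was −1.34 ± 0.26 (adjusted p = 0.0027), and −0.97 without days 4 and 5 of CTX (adjusted p = 0.0032). Reads of OCLN can be shared with its partial copy OCLNP1.

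In SCC1, OCLN stayed at 22.2 to 29.3 CPM with PBS and 22.0 to 26.4 CPM with CTX (−0.09 ± 0.09, adjusted p = 0.419). SCC25 expressed very little OCLN, with 1.43, 1.23, 2.08, 2.18 and 1.72 CPM in PBS and 1.45, 1.99, 3.06, 3.15 and 2.99 CPM in CTX. The last 3 CTX libraries lay above all PBS libraries. The difference was 0.56 ± 0.23 (adjusted p = 0.110), 0.54 with the day as a block (adjusted p = 0.0189) and 0.72 without CTX day 1 (adjusted p = 0.0263). Those last 3 libraries ran on another flow cell than every PBS library of the line. With flow cell in the fit, only CTX days 1 and 2 are set against PBS, at 0.014 (adjusted p = 0.980). That fit cannot test the last 3 libraries. The change of OCLN differed between the lines (adjusted p = 0.00014), also with flow cell in the fit (adjusted p = 0.0073).

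MARVELD2 (chr5:68710892-68740157, plus strand) was the 1 gene of the 9 called in all 3 lines, and the 1 called in both directions. SCC1 had 31.3, 32.7, 32.8, 28.1 and 32.1 CPM with PBS and 31.7, 36.8, 38.9, 37.9 and 41.3 CPM with CTX, where only CTX day 1 overlapped with PBS (0.27 ± 0.07, adjusted p = 0.0111). With flow cell in the fit that change was 0.23 (adjusted p = 0.239). SCC25 had 25.5, 24.3, 26.0, 28.7 and 25.9 CPM with PBS and 28.1, 29.8, 32.1, 30.8 and 30.9 CPM with CTX, overlapping only at CTX day 1 (0.23 ± 0.06, adjusted p = 0.0245). SCC6 had 23.0, 27.2, 23.0, 22.8 and 21.4 CPM with PBS and 19.9, 21.1, 20.2, 16.7 and 17.8 CPM with CTX, which did not overlap (−0.32 ± 0.11, adjusted p = 0.0402). All 3 changes were small. The call in SCC25 was lost without any 1 of CTX days 4 and 5 and PBS days 1, 2 and 3 (adjusted p = 0.0506 to 0.0707), and that in SCC6 without any 1 of CTX 2a and days 3, 4 and 5 and PBS days 2, 3 and 4 (adjusted p = 0.0548 to 0.0993). With flow cell in the fit the gene was called in no line, with 0.16 in SCC25 (adjusted p = 0.218) and −0.24 in SCC6 (adjusted p = 0.101). With no filter on low counts the calls in SCC25 and SCC6 were lost too (adjusted p = 0.0688 and 0.119), as was that in SCC6 without CTX days 4 and 5 (−0.22, adjusted p = 0.22). The difference between lines was called (adjusted p = 0.00032), also with flow cell in the fit (adjusted p = 0.0441).

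The scaffold TJP1 (chr15:29991571-30261118, minus strand, overlapping a gene without a symbol on the same strand) was called in no line, except with the day as a block. In SCC1, PBS gave 211 to 251 CPM and CTX gave 217 to 235 CPM, a difference of −0.01 ± 0.05 (adjusted p = 0.936, 95% interval −0.11 to 0.09). In SCC25 it was at 145, 141, 165, 171 and 172 CPM with PBS and at 134, 133, 153, 147 and 142 CPM with CTX, lower on 5 of 5 days, by −0.15 ± 0.07 (adjusted p = 0.148), or −0.15 with the block (adjusted p = 0.0355). In SCC6, PBS gave 398, 510.5, 506, 401 and 388 CPM, and CTX gave 449 and 476 CPM in 2a and 2b, then 440.0, 301 and 288 CPM. Only CTX days 4 and 5 lay below the PBS range. The change was −0.20 ± 0.16 (adjusted p = 0.376), −0.32 with the block (adjusted p = 0.0120), and 0.03 without CTX days 4 and 5 (adjusted p = 0.903). Its change did not differ detectably between the lines (adjusted p = 0.669), though with the block it did (adjusted p = 0.0316).

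TJP3 (chr19:3708360-3750811, plus strand, with APBA3 on the opposite strand) was scarce. In SCC6 it was at 3.43, 2.98, 3.33, 6.52 and 10.5 CPM with PBS and at 2.71, 3.03, 2.40, 4.01 and 3.02 CPM with CTX. The PBS libraries rose on days 4 and 5, while the CTX libraries rose on day 4 and were lower again on day 5. The change was −0.84 ± 0.33 (adjusted p = 0.0758), −0.77 with the block (adjusted p = 0.0383), −1.13 with flow cell in the fit (adjusted p = 0.0434), and −0.97 to −1.01 when PBS day 1 or day 2 was left out (adjusted p = 0.0411 to 0.0484). It was −0.45 without PBS day 5 (adjusted p = 0.203) and −0.67 with day 0 added (adjusted p = 0.202). SCC1 held 0.254 to 1.22 CPM with PBS and 0.376 to 0.902 CPM with CTX (−0.06 ± 0.37, adjusted p = 0.917). SCC25 held 1 to 7 counts per library with PBS and 8 to 13 with CTX and was not tested, being under the count filter. Those are 0.0216 to 0.142 CPM against 0.171 to 0.270 CPM, without overlap, a level at which the fold is poorly set. The difference between lines, in a fit over all 30 libraries that kept the gene, had an adjusted p of 0.0370, and 0.0520 to 0.0747 in the 11 fits without 1 library that lost it. With no filter on low counts it was 0.0550.

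F11R (chr1:160965001-160991133, minus strand, overlapping a gene without a symbol on the same strand), the immunoglobulin-type adhesion gene, rose in SCC1 alone by call. PBS held 252, 254, 250.3, 260.0 and 259.8 CPM and CTX held 287, 324, 334, 330.4 and 323 CPM, without overlap. The rise was 0.34 ± 0.05 (adjusted p = 0.00013), and 0.32 with flow cell in the fit (adjusted p = 0.0241). SCC6 had 253 to 292 CPM with PBS and 244 to 305 CPM with CTX (0.03 ± 0.09, adjusted p = 0.850). SCC25 had 232 to 257 CPM with PBS and 231 to 288 CPM with CTX (0.11 ± 0.06, adjusted p = 0.250). The difference between lines was close to the threshold (adjusted p = 0.0418) and was lost in 17 of the fits that left out 1 library (adjusted p = 0.0520 to 0.0864) and with no filter on low counts (adjusted p = 0.219). In total, 7 of the 9 genes were called as changing differently between the lines, against 26.1% of all genes tested. With flow cell in the fit 3 of them (CLDN4, MARVELD2 and OCLN) were called, against 3080 of 21414 genes.

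A further question was whether the early days of treatment differed from the late ones. For this, the CTX effect of days 4 and 5 was compared with that of days 1 to 3 within each line (in SCC6, CTX libraries 2a, 2b and day 3), and edgeR called no gene in SCC1, SCC6 or SCC25, neither among the 9 nor among all genes (0% in each). At an unadjusted p under 0.05 there were 1458, 5626 and 599 genes, 7.42%, 29.4% and 2.89% of those tested, of which 0, 6 and 1 were among the 9, and DESeq2 called 31, 2838 and 3 genes. In SCC6 the late effect on CLDN1 was lower than the early one by −1.03 ± 0.25 (adjusted p = 0.0926), that on OCLN by −0.83 ± 0.24 (adjusted p = 0.0931) and that on CLDN12 by −0.53 ± 0.18 (adjusted p = 0.104). The late effect on CLDN4 was above the early one by 1.21 ± 0.40 (adjusted p = 0.101), and the PBS level of CLDN4 fell over the same days. With the day as a block, these 4 genes were called, at −0.87, −0.64, −0.44 and 0.84 (adjusted p = 0.0202, 0.0249, 0.0316 and 0.0124), as were 12.9% of all genes. DESeq2 called the same 4 and TJP3. SCC6 CTX days 4 and 5 were the only libraries of that line on their flow cell, so treatment period and flow cell cannot be told apart there.

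The wider tight junction list held 53 genes of the table, 44 beside these 9. Of those 44, 30 were tested in SCC1 (11 higher, 6 lower), 27 in SCC6 (4 higher, 3 lower) and 32 in SCC25 (6 higher, 2 lower), with median log2 fold changes of 0.09, 0.04 and 0.0011. Of all genes, 22.7% were called higher and 22.1% lower for SCC1. For SCC6 these shares were 15.6% and 14.6%, close to those of the list, and for SCC25 they were 8.8% and 9.5%. The same shares are the background of the counts by role that follow.

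Of the 19 further claudin genes, 6 were tested in SCC1 (3 higher), 6 in SCC6 (1 higher) and 8 in SCC25 (2 higher). CLDN16, a claudin of magnesium transport in the kidney, rose by 2.19 ± 0.23 in SCC1 and 1.00 ± 0.15 in SCC25 (adjusted p = 1.2e-05 and 0.0013). CLDN9 rose by 1.26 ± 0.26 in SCC1 and 0.89 ± 0.30 in SCC6 (adjusted p = 0.0019 and 0.0412). MARVELD3, the remaining MARVEL protein gene of the junction, rose in SCC1 by 0.28 ± 0.09 and in SCC25 by 0.65 ± 0.10 (adjusted p = 0.0253 and 0.0015). CXADR, an adhesion protein related to F11R and the receptor of coxsackieviruses and adenoviruses, was the 1 gene of the list called higher in all 3 lines, by 0.65 ± 0.06 in SCC1, 0.36 ± 0.13 in SCC6 and 0.47 ± 0.13 in SCC25 (adjusted p = 6.1e-06, 0.0478 and 0.0276). In SCC6 the call for CXADR was lost with the day as a block (0.27, adjusted p = 0.0645).

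Among the 9 further scaffold genes, 2 rose and 2 fell in SCC1, 2 rose and 1 fell in SCC6, and 2 fell in SCC25. CGN, cingulin, fell in SCC6 by 1.11 ± 0.37 (adjusted p = 0.0396), and its relative CGNL1 rose by 1.34 ± 0.22 in SCC6 and by 0.91 ± 0.24 in SCC1 (adjusted p = 0.00096 and 0.0076). AMOTL1 changed by −0.58 ± 0.07 in SCC1 and −0.27 ± 0.05 in SCC25 (adjusted p = 3.0e-05 and 0.0020). Of the 8 polarity complex genes, PARD6B, a partner of the atypical protein kinase C, changed by −1.83 ± 0.20 in SCC6 and −0.91 ± 0.12 in SCC1 (adjusted p = 7.4e-05 and 7.0e-05).

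Several of the wider calls rested on few libraries. In SCC6, CXADR was lost without any 1 library other than CTX day 4 or PBS day 5, CGN without any 1 other than CTX 2b, PBS day 4 or PBS day 5, and CLDN9 without CTX day 4 or 5 or PBS day 2, 3, 4 or 5, with adjusted p of up to 0.113, 0.101 and 0.110. In SCC25, CXADR was lost without CTX day 4 or 5 or PBS day 1, 2 or 3 (adjusted p up to 0.0746), and in SCC1 MARVELD3 was lost without any 1 library other than CTX day 1 or PBS day 3 or 4 (adjusted p up to 0.0747). With flow cell in the fit, CGNL1, CLDN9 and MARVELD3 were not called in SCC1 (adjusted p = 0.593, 0.0744 and 0.0839), nor CGN and CLDN9 in SCC6 (adjusted p = 0.248 and 0.0558), nor CXADR in SCC25 (adjusted p = 0.453). In SCC6, CLDN9 was not called without CTX days 4 and 5 (0.33, adjusted p = 0.388), nor CXADR without both CTX libraries of day 2 (0.31, adjusted p = 0.143). AMOTL1, CLDN16 and PARD6B kept their calls in every alternative run.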

How the data were processed

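Cells of the SCC1, SCC6 and SCC25 lines given PBS or 100 nM cetuximab were harvested each day for RNA, and poly(A) libraries were sequenced as paired 100 bp reads. The authors quantified transcripts with Salmon 0.8.2 (submitters' processing notes, which name hg19 and GRCh37) and summed them to genes with tximport. The deposited values are estimated counts per gene symbol, not normalized, and the annotation release is not given in the sources used here. They were rounded to whole numbers here. Genes were filtered with filterByExpr, libraries scaled by TMM, and each comparison fitted over all genes with the quasi-likelihood test of edgeR 4.0.16 (R 4.3.3), with Benjamini-Hochberg adjustment and calls at adjusted p under 0.05, in place of the DESeq2 of the study's methods. DESeq2 1.42.0 was an alternative. SE is the absolute log2 fold change over the square root of F. CTX was compared with PBS within each line over days 1 to 5, and differences between lines and periods were tested as interaction terms.

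Alternatives were DESeq2, its size factors, no count filter, day as a block, day 0 added, flow cell as a covariate, and each library left out. Within a line, the fit with flow cell compares treatments only on the flow cell that held both. Added after seeing the data were a GC correction and leaving out the SCC6 CTX libraries of days 4 and 5, or of day 2, together. The day in the labels pairs CTX with PBS. Deviations of same-day libraries correlated at 0.12 to 0.40 in SCC1, 0.23 to 0.59 in SCC25 and −0.19 to 0.59 in SCC6. SCC6 libraries 2a and 2b differed by more than sampling noise (chi-square of 28.0 per gene) and were counted as 2.

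The members and gene lists were chosen with earlier results of these data known. Genes outside the 9 were named by rule: the largest changes of the wider list in a line, those called in all 3 lines, and genes of the other lists called in at least 2 lines. 1 gene that this rule names is not reported here, though the counts over the lists include it. Promoters came from RefSeq (GRCh38.p14) and gene positions from a GENCODE annotation on GRCh37. Each fit was tested on simulated counts with 200 genes changed, where 94.5%, 80% and 93.5% were recovered at a log2 change of 1 for CTX in SCC1, SCC6 and SCC25, and 55%, 9% and 41% for the period difference. These shares hold for counts drawn with 1 common dispersion per fit. Recovery with day trends, flow cells or a separate spread for each gene was not tested. Depth was 28508800 to 80727500 counts per library of days 1 to 5.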

Additional observations from a re-analysis of the deposited data

Results flagged for a closer look

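In SCC1, the CTX library of day 1 stood apart from the other 4 for F11R. Its gap to the next library was 0.773 of the group's range, with 287 CPM against 323 to 334 CPM. Of 54 groups of 5 libraries examined this was the 1 past the limit of 0.71, and chance sets about 1 group in 20 past it.

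The response to CTX differed between the 3 lines, in a test of the difference itself with edgeR, for 7 of the 9 genes, against 26.1% of all genes. The adjusted p was 0.0117 for CLDN12, 0.00247 for CLDN4, 0.00283 for CLDN7, 0.0418 for F11R, 0.000325 for MARVELD2, 0.000142 for OCLN and 0.0370 for TJP3. With flow cell in the fit it was 0.0458 for CLDN4, 0.0441 for MARVELD2 and 0.0073 for OCLN, and it missed the threshold for CLDN12, CLDN7, F11R and TJP3 (0.200, 0.272, 0.114 and 0.0898). The lines furthest apart for OCLN, CLDN4 and CLDN7 were SCC6, with log2 fold changes of −1.34, −1.07 and −0.94, and SCC25, with 0.56, 0.43 and 0.40, a pair whose difference was not tested on its own.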

How the results depend on the processing

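Counts of called genes among the 9 moved as follows. With flow cell as a covariate they fell from 5 to 2 in SCC1, from 2 to 1 in SCC25 and from 7 to 3 for the difference between lines. Over all genes, the fit with flow cell called 1417 of 19101 in SCC25 and 3080 of 21414 between lines. With day as a block the counts among the 9 rose from 2 to 6 in SCC25 and from 0 to 4 for the period difference in SCC6. The shares of all genes with the block were 26.8% and 12.9%. The counts also rose from 5 to 7 in SCC6 and 7 to 9 for the difference between lines, against 45.8% and 9000 of 21414 genes. Among the genes and comparisons reported, the block changed no other call than those given with the results. With no filter on low counts there was 1 in SCC25 and 3 for the period difference in SCC6, the latter beside 3366 over all genes. DESeq2 gave 5 for the period difference in SCC6 and 3 for the PBS trend in SCC1, beside 2838 and 1485 over all genes. Without day 0 the PBS trend gave 0 in SCC1 and 2 in SCC25, beside 99 and 1090 over all genes. Leaving out 1 library at a time gave 1 to 4 in SCC25, 0 to 2 for the trend in SCC1, 2 to 4 for the trend in SCC25 and 0 to 2 for the period difference in SCC6. The lowest in SCC25 came without CTX day 4 or 5 or PBS day 1, 2 or 3, and the highest without PBS day 5.

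Values that changed sign were not called in the fit reported. In SCC1, TJP1 became 0.0177 and TJP3 0.0337 with day 0 added, and TJP3 0.0271 with the block. F11R became −0.0213 in SCC6 and −0.0268 in SCC25 with flow cell in the fit, TJP1 of SCC6 became 0.0279 without CTX days 4 and 5, and the period difference of CLDN7 in SCC6 became −0.0066 with the block. Leaving out 1 library gave −0.0430 to 0.0190 for TJP1 and −0.27 to 0.22 for TJP3 in SCC1, −0.0086 to 0.0661 for F11R in SCC6, −0.0771 to 0.0316 for CLDN12 in SCC25 and −0.0690 to 0.39 for the period difference of CLDN7 in SCC6. The causes were not tested.

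Over all genes, calls went from 8061 to 4197 (SCC1), 3496 to 1417 (SCC25) and 5586 to 3080 (between lines) with flow cell in the fit. The fits reported tested 17984 genes in SCC1, 17387 in SCC6, 19101 in SCC25 and 21414 between lines. For SCC1, SCC6 and SCC25 they tested 19045, 17757 and 20017 for the trend and 19660, 19150 and 20740 for the period difference. With the block the calls were 7961 in SCC6 (5238 without it), 9000 between lines and 2470 for the period difference in SCC6. They were 2868 in SCC6 without CTX days 4 and 5, and in SCC25 2193, 2221, 2204 and 2278 without CTX day 4, CTX day 5, PBS day 2 or PBS day 3. The trend count was 474 in SCC1 against 1485 with DESeq2, 99 without day 0, and 24 to 1575 without 1 library. It was 5812 in SCC6 against 1892 without day 0, 3639 without day 1 and 3144 without day 5, and 2147 in SCC25 against 1090, 1337 and 1207. The period difference called 0 genes, against 31, 2838 and 3 with DESeq2 in SCC1, SCC6 and SCC25, 202, 3366 and 7 with no filter, 209 in SCC25 with flow cell, up to 1424 in SCC6 and up to 2 in SCC25 without 1 library. The period difference with flow cell could not be fitted in SCC6, and the GC correction was not used for SCC25, where the share of tested genes with a GC value was just under the 80% required. TJP3 had at most 13 counts per library in SCC25 and was not tested there, so a change could not be detected.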

Other observations

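CDH1, the E-cadherin of the adherens junction, rose by 0.98 ± 0.10 on the log2 scale in SCC1 and 0.44 ± 0.12 in SCC25 (edgeR, adjusted p = 1.2e-05 and 0.0259) and stood at −0.47 ± 0.17 in SCC6 (adjusted p = 0.0549). In SCC6 CDH1 was called lower with the day as a block (−0.47, adjusted p = 0.0010), by DESeq2, with the GC trend removed, with day 0 added and without both CTX libraries of day 2 (adjusted p = 0.0379, 0.0233, 0.0331 and 0.0318), and not with flow cell in the fit (−0.24, adjusted p = 0.272) or without CTX days 4 and 5 (−0.28, adjusted p = 0.300). Leaving out 1 library gave −0.39 to −0.56, called without CTX 2b, PBS day 4 or PBS day 5. The SCC25 call of CDH1 was lost with flow cell in the fit (adjusted p = 0.376) and without CTX day 4 or 5 or PBS day 1, 2 or 3 (adjusted p up to 0.0711). CTNNB1, beta-catenin, fell by 0.35 ± 0.06 in SCC1 (adjusted p = 0.00063) and rose by 0.24 ± 0.09 in SCC6 (adjusted p = 0.0498), the first without a call with flow cell in the fit (adjusted p = 0.154) and the second without any 1 library other than CTX days 4 and 5 (adjusted p up to 0.114), with no filter on low counts (adjusted p = 0.103) or without both CTX libraries of day 2 (0.16, adjusted p = 0.212). Of the 10 adherens junction genes, all tested, 4 rose and 2 fell in SCC1, 1 rose and 1 fell in SCC6, and 1 rose and 1 fell in SCC25. Over all genes, 22.7% were higher and 22.1% lower for SCC1, with 15.6% and 14.6% for SCC6 and 8.8% and 9.5% for SCC25, shares that are also the background of the counts of repressors and activators.

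Of 5 repressors of epithelial junction genes, 1 rose and 2 fell in SCC1, 2 rose and 2 fell in SCC6, and 2 fell in SCC25. SNAI1 fell in all 3 lines, with log2 fold changes of −0.99 ± 0.21, −0.97 ± 0.26 and −0.83 ± 0.17 in SCC1, SCC6 and SCC25 (adjusted p = 0.0020, 0.0146 and 0.0067), the last without a call with day 0 added (adjusted p = 0.144). ZEB1 changed by −2.15 ± 0.23 in SCC1 and −0.88 ± 0.24 in SCC6 (adjusted p = 1.3e-05 and 0.0169), in SCC6 not with flow cell in the fit (adjusted p = 0.0946) or without CTX days 4 and 5 (adjusted p = 0.123). SNAI2 rose by 0.87 ± 0.18 in SCC6 and changed by −0.42 ± 0.06 in SCC25 (adjusted p = 0.0042 and 0.0010). TWIST1 rose by 0.33 ± 0.09 in SCC1 and 0.69 ± 0.21 in SCC6 (adjusted p = 0.0079 and 0.0254), neither with flow cell in the fit (adjusted p = 0.0810 and 0.134), and in SCC6 not without CTX day 3, 4 or 5 or PBS day 2 or 3 (adjusted p up to 0.0736), without CTX days 4 and 5 together (adjusted p = 0.163) or with the GC trend removed (adjusted p = 0.0649).

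Of 8 activators of epithelial genes, 4 rose and 1 fell in SCC1, 1 rose and 5 fell in SCC6, and 1 of the 7 tested rose in SCC25. GRHL2 rose in all 3 lines, by 0.80 ± 0.08, 0.55 ± 0.12 and 0.21 ± 0.06 (adjusted p = 1.0e-05, 0.0041 and 0.0266), in SCC25 not without CTX day 4 or PBS day 3 or 4 (adjusted p up to 0.0583) or with no filter on low counts (adjusted p = 0.0681). GRHL1 rose by 0.44 ± 0.10 in SCC1 and changed by −1.18 ± 0.19 in SCC6 (adjusted p = 0.0023 and 0.00099), the first without a call with flow cell in the fit (adjusted p = 0.105). EHF changed by −1.38 ± 0.19 in SCC1 and −0.97 ± 0.12 in SCC6 (adjusted p = 8.8e-05 and 0.00019).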
